A study of Danio rerio with 2 samples.

Results

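The proximal part of zebrafish chromosome 4 carried 497 of the 20243 RNA polymerase II (Pol II) peaks called in embryos at 4 h post-fertilization (hpf), the time at which the zygotic genome is being activated. Its peaks were chosen by position: every peak of chromosome 4 that started below 30 Mb was taken. That limit was set with the number of peaks per Mb along the chromosome in view, so the contrast in density between the 2 sides of the limit chose the members and is given here as a description. Chromosome 4 held 3001 peaks in all, of which the proximal part held 16.6%, on 39.2% of the span up to the last peak at 76.6 Mb.

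The embryos were untreated wild-type Tübingen fish at 4 hpf. The series held 2 samples, 1 immunoprecipitated for Pol II with antibody 8WG16 and 1 of input chromatin. Whole embryos were used, some 1000 per experiment by the labels, so all cell types of the embryo contribute to a peak. The peaks came from a single list that the authors called on 2 pooled biological replicates and 1 input. No value of either replicate was used, so no difference below has a replicate check and no p-value is given. The intervals below allow for counting error alone. Neighbouring peaks are not independent, which makes the intervals too narrow where peaks crowd. Each peak has an integer score, taken here to be 10 times its best −log10 q. It states how firmly a peak was called, and is not a fold enrichment. Positions are in the build the study names, Zv10 (GRCz10), and count from 1.

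Pol II transcribes protein-coding genes and many microRNA precursors. The enzyme gathers at promoters and extends over the body of a gene while it is being transcribed, so that a peak can be a narrow mark at a start site or a domain that spans a gene. The zebrafish genome is nearly silent until its activation, when the first zygotic genes are transcribed in cells that still divide fast. Chromosome 4 is unusual: its long arm is known as late replicating, heterochromatic and rich in repeats, whereas the proximal part is usually described as similar to other chromosomes in gene content. The miR-430 family, microRNAs that help to clear maternal mRNAs and are among the earliest transcripts of the embryo, is encoded largely on this chromosome. A RefSeq table of another assembly (GRCz12tu) placed 57 of 58 miR-430 entries on chromosome 4. Positions of that assembly cannot be set beside those of the list, so whether any peak overlaps these or other genes was not tested and no peak is named by a gene.

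A single Pol II peak stood far above all others of proximal chromosome 4. It spanned 17.1 kb (28738371 to 28755470) and scored 129970, which was 12.6 times the next highest score of the part, 10305. The median score of the 497 peaks was 72. In the whole list it ranked 4th by score and 148th by width, and within the part it was the third broadest. No peak of 5 kb or more on any assembled chromosome scored higher: among 1585 such peaks the next score was 34958, lower by a factor of 3.72. The 554 peaks of 10 kb or more on assembled chromosomes had a median score of 1062.5.

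The peaks around it scored at the level usual for the part. Within 250 kb of its summit lay 12 other summits, with scores of 41 to 181 and a median of 65.5. The preceding peak ended 63.3 kb before it. The only peak close by, at 28760541 to 28760970, lay 5.07 kb beyond its end, was 430 bp wide and scored 59, and the next one followed after another 99.3 kb. Within the domain, the summit lay at 28742286, which is 3.92 kb from the low-coordinate end, or 22.9% of the way along. The strongest domain of the part thus had 1 weak neighbour, and was no member of a large cluster. Reads that fit several places were assigned to 1 of them by chance, so within near-identical copies of a repeat the signal of one copy can stand at another; whether this applies here was not tested. The 23 peaks that started between 28 and 29 Mb, of which it was 1, otherwise had a median score of 73, close to that of the whole part.

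**Figure D1:**
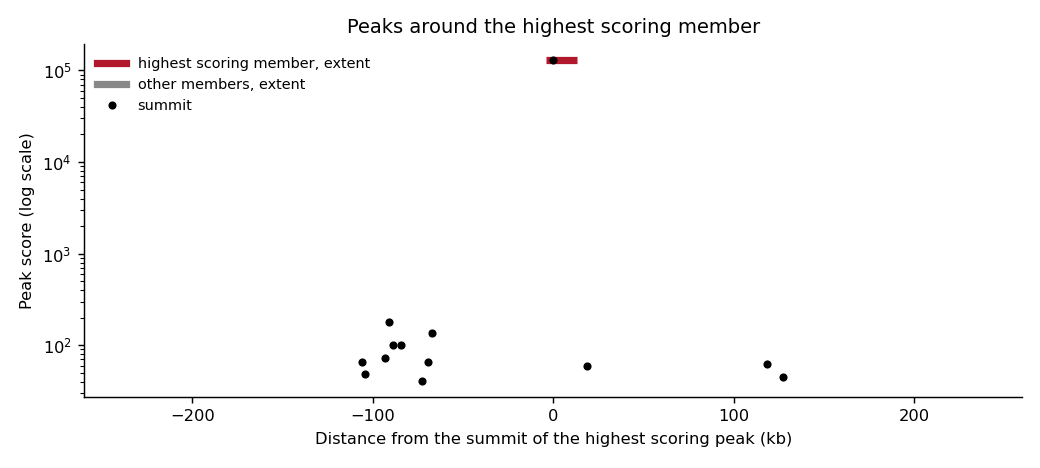
Score (log scale) of each peak against its distance in kb from the summit of the highest scoring peak of proximal chromosome 4. Bars show the extent of each peak and dots its summit. The 17.1 kb domain scored 129970, and the 12 other summits in the window scored 181 or less.

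Of the 497 peaks, 2 scored above 10000, against 82 of the 20243 in the whole list, which is a similar share. The second of the 2 was narrow. It spanned 1170 bp (14725931 to 14727100) and scored 10305. A second strong narrow peak, with a score of 8719 and a width of 1920 bp, followed at 14733411 to 14735330. They belonged to a group of 4 peaks, whose other 2 scored 500 and 97, and no peak lay in the 751330 bp before the group. Both strong peaks had their summit near the middle, 535 bp and 925 bp from the nearer end. They differ in shape from the 17.1 kb domain, with high scores confined to under 2 kb.

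The rest of the 10 highest scores lay in the first 22 Mb, most of them below 5 Mb, and mixed narrow peaks with broad ones. The peak at 16313601 to 16325160 scored 6492 and was 11.56 kb wide, and the peak at 828291 to 834900 scored 3719 with 6.61 kb. Then came 3 narrow peaks: 244441 to 246210 scored 3079, 2423361 to 2424150 scored 2807, and 4121981 to 4123600 scored 2696. Their widths were 1770, 790 and 1620 bp. The last of the 10 were 10.66 kb (377531 to 388190) and 6 kb wide (21925901 to 21931900), with scores of 2464 and 1913. Thus 5 of the 10 were under 2 kb wide, and only the peak of score 129970 was also among the 10 broadest.

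Over all peaks, high scores were no more frequent on proximal chromosome 4 than on other chromosomes. The counts that follow include the 10 peaks above. Peaks among the 1000 highest scores of the list, which reached down to 974, numbered 17, or 3.42% of the 497 (exact Clopper-Pearson 95% interval 2.0 to 5.42), against 5.03% on the 24 other assembled chromosomes (4.70 to 5.37) and a background of 4.94% over all peaks. That interval includes the share of the other chromosomes. Taking only the highest scoring peak of each cluster of peaks no more than 10 kb apart, the order turned round. The share was then 15.2% (9.91 to 22.0) against 14.0%, within the counting error. By length, the first 30 Mb of other chromosomes held a median of 19 such peaks. Of these chromosomes, 14 had more than 17, 1 had as many and 9 had fewer. The 17 lay in 16 different clusters, 11 were 5 kb or wider, and 6 were under 2 kb. A score of 177 or more, which marks the top 25% of the list, was reached by 20.7% (17.2 to 24.6) of the proximal peaks and by 25.1% (24.5 to 25.8) of peaks on other chromosomes. Of the 24 other chromosomes, 23 had a higher share, and only chromosome 24 had a lower one, 19.2%. The last 1 Mb of the part had 11.4% (5.34 to 20.5), and below 29 Mb the share was 22.5% (18.6 to 26.8), an interval that includes that of other chromosomes. The upper quartile of the score was 138 in the whole part and 151 below 29 Mb, against 177 on other chromosomes. The medians were close, 72 (interval of the median 64 to 78) against 76 (74 to 78), and 17 of the 24 chromosomes had a higher median. Scores under 50 made up 30.8% of proximal peaks and 29.2% of peaks elsewhere. The distance to other chromosomes was thus larger in the upper range of scores than at the median. Scores on the distal part of chromosome 4 were higher than on the proximal part. Their median was 85 (80 to 88) and their upper quartile 194.5, and 27.0% (25.2 to 28.7) reached 177.

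**Figure D2:**
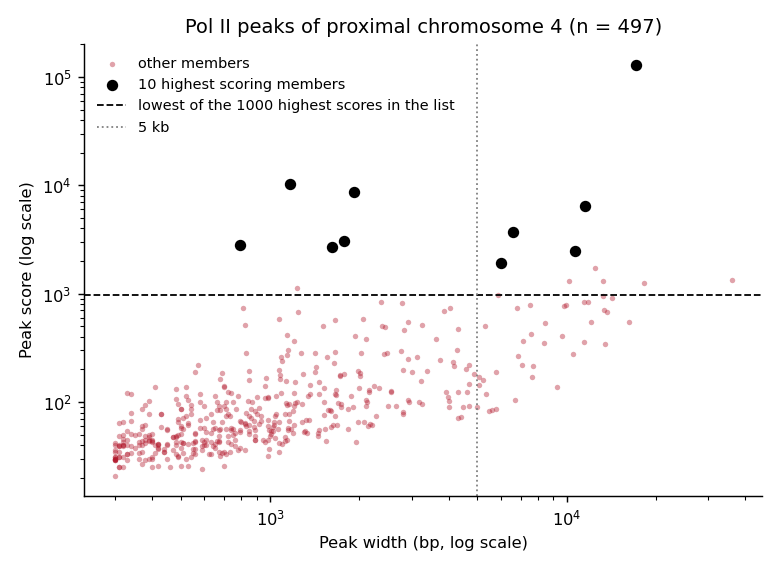
Score against width (both on log scales) of the 497 Pol II peaks of proximal chromosome 4. Black dots are the 10 highest scores, the dashed line is the lowest of the 1000 highest scores in the list (974), and the dotted line is 5 kb. The peak of 17.1 kb and score 129970 lies alone at the top right.

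Peak widths of proximal chromosome 4 were those of the genome at large. The median width was 860 bp (790 to 980), with quartiles of 510 and 1740 bp, against 860 bp (840 to 880) with quartiles of 490 and 1820 bp on other chromosomes. Peaks under 1 kb made up 55.5% of the proximal part and 55.7% of other chromosomes. Score and width moved together across the 497 peaks (Spearman's rho 0.737, against 0.685 on other chromosomes). This is a description across peaks of 1 call, and both measures come from the same enrichment, which ties them.

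Broad Pol II domains were also present at a share close to that of other chromosomes. There were 46 peaks at least 5 kb wide, which is 9.26% of the proximal peaks (6.86 to 12.2), against 8.60% on other chromosomes (8.17 to 9.03) and 7.98% over the whole list. On the distal part the share was 4.07% (3.33 to 4.92), or 102 of 2504. Of the 24 other chromosomes, 8 had a higher share than the proximal part and 16 a lower one. Counted by length, broad domains were more frequent than on most chromosomes. The first 30 Mb of the others held 18 to 51, with a median of 35.5. Of these chromosomes, 2 had more than 46, 1 had as many and 21 had fewer. That count depends on the density of peaks as well as on their widths. The 46 domains held 47.1% of the sequence under proximal peaks, against 45.3% on other chromosomes. Their scores ran from 83 to 129970 with a median of 542.5, against 610 for broad peaks on other chromosomes and 511 on the distal part. Among the 1000 highest scores were 11 of the 46 (23.9%), against 33.3% on other chromosomes and 19.6% on the distal part. No interval was computed for these shares.

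The broadest domain of the part, 36.01 kb (1461101 to 1497110), scored 1345 and was the 13th broadest of the whole list. Its summit lay 375 bp from the high-coordinate end. The next, 18.23 kb (29209311 to 29227540), scored 1251 with its summit 775 bp from the low-coordinate end. Both were broader than the strongest domain and scored far below it. The 4th to the 7th broadest were 16.25 kb (5514911 to 5531160), 14.21 kb (25061721 to 25075930), 13.67 kb (9766571 to 9780240) and 13.50 kb (13961101 to 13974600). The last 3 of the 10 were 13.32 kb (25794551 to 25807870), 13.30 kb (23403251 to 23416550) and 13.29 kb (9176961 to 9190250). Scores of these 7 ran from 344 to 1315.

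In many broad domains of proximal chromosome 4 the strongest point lay near an end. The summit was within 1 kb of an end in 28 of 46 domains, or 60.9% (45.4 to 74.9), against 42.4% (39.9 to 45.1) of the 1437 broad peaks on other chromosomes and 52.0% (41.8 to 62.0) on the distal part. All 24 other chromosomes had lower shares, from 26.9% on chromosome 13 to 52.8% on chromosome 6. Of the 28, 20 had the summit at the high-coordinate end and 8 at the low-coordinate end, while on other chromosomes the ends were nearly even, 312 and 298. Among the 19 proximal domains of 10 kb or more, 13 had the summit within 1 kb of an end. Of these 13, 6 had it at the high-coordinate end and 7 at the low-coordinate end, so the broadest domains did not share the uneven split. With a distance of 500 bp the shares over the 46 domains and on other chromosomes were 39.1% and 26.0%. For a summit in the outer 10% of the peak at either end they were 54.3% and 40.1%. The distal part had 44.1% at 500 bp, above the proximal part, and 52.9% for the outer 10%. Summits near an end were therefore not particular to the proximal side of chromosome 4. The domain of score 129970 was not among the 28. This measure was chosen after the data were seen, rests on 46 domains, and carries no test.

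Along the proximal part, Pol II peaks were dense at both ends and sparse between. In 5-Mb bins there were 146 peaks from 0 to 5 Mb, or 29.2 per Mb (exact Poisson 95% interval 24.7 to 34.3), then 53, 65, 38 and 32, and 163 from 25 to 30 Mb, or 32.6 per Mb (27.8 to 38.0). The sparsest bin, 20 to 25 Mb, had 6.4 peaks per Mb (4.38 to 9.03). Covered sequence followed the same course, 5.58% of the first bin, 1.55% of the bin from 20 to 25 Mb and 5.38% of the last. The dense bins did not hold more strong peaks in proportion. A score of 177 or more was reached by 19.9% of peaks in the first bin and 14.7% in the last. In the 4 bins between, the share was 18.4% to 34.4%, resting on few peaks (7 of 38 in the lowest and 11 of 32 in the highest).

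The last 1 Mb of the part differed from the 29 Mb before it. From 29 to 30 Mb there were 79 peaks, the most of any 1-Mb bin below the limit, while the other 29 bins held 0 to 36 peaks with a median of 13. Bins of the distal part had a median of 58, and its 46 full bins ranged from 4 to 107. The 1250 full bins of other chromosomes had a median of 11. Peaks of the last 1 Mb had a median width of 740 bp (610 to 830) against 930 bp (820 to 1060) below 29 Mb, and 2 of the 79 were 5 kb or wider against 44 of 418. Their median score was 67 (55 to 86), against 72 (65 to 83), and these intervals overlap. A bin above the upper quartile of distal bins, 65.75 peaks, therefore lay inside the limit. Just inside the limit, the last 3 peaks (29947691 to 29948830, 29949221 to 29949560 and 29951631 to 29952770) scored 419, 67 and 270. Just outside it, after 182600 bp without a peak, the first 3 (30135371 to 30135730, 30146071 to 30146590 and 30148621 to 30148960) scored 70, 93 and 33.

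**Figure D3:**
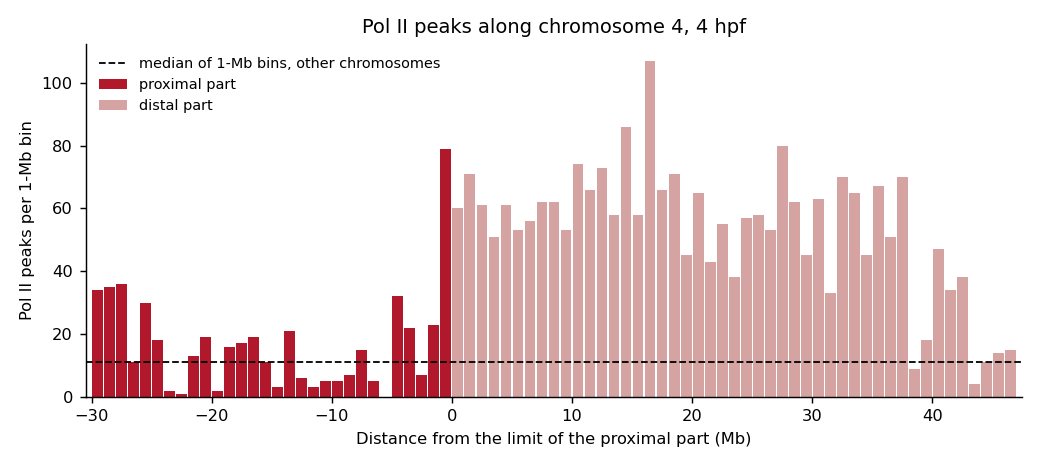
Pol II peaks in 1-Mb bins along chromosome 4, by distance in Mb from the limit of the proximal part. Dark bars are the proximal and light bars the distal part, and the dashed line is the median bin of other chromosomes (11 peaks). The bin just before the limit holds 79 peaks, and the 29 before it hold 36 or fewer.

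Over its whole length the proximal part was somewhat denser in peaks than other chromosomes. It had 16.6 peaks per Mb (exact Poisson 95% interval 15.1 to 18.1) against 13.3 (13.1 to 13.5), a ratio of 1.25 (exact binomial 95% interval 1.14 to 1.37). The distal part had 53.7 per Mb. The excess lay at both ends of the proximal part. There were 29.2 per Mb from 0 to 5 Mb and 32.6 from 25 to 30 Mb. Every 5-Mb bin between was below 13.3, a value that includes the dense bins of other chromosomes. From 5 to 10 Mb and 10 to 15 Mb the densities were 10.6 and 13, within the counting error. From 15 to 20 Mb the density was 7.6 (5.38 to 10.4). From 20 to 25 Mb it was 6.4 (4.38 to 9.03). Both intervals lie below 13.3. When the first 30 Mb of each chromosome were compared, only chromosomes 22 and 3 had more peaks than the 497 of chromosome 4, with 716 and 618, and the lowest, chromosome 18, had 261. The ratio was lower when a dense end of the part was left out. Other chromosomes kept their own dense bins, so a lower ratio follows by construction. With the limit at 29 Mb, a choice made after the data were seen, the density was 14.4 per Mb (13.1 to 15.9) and the ratio 1.09 (0.985 to 1.2). With the limit at 25 Mb the ratio was 1.01 (0.902 to 1.12). Without the first 5 Mb, an alternative also added after the data were seen, the density was 14.0 per Mb (12.6 to 15.6) and the ratio 1.06 (0.95 to 1.18). The ratio was 1.03 (0.839 to 1.25) when the top 25% of all peaks by score were counted, so no excess of strong peaks was detected at these numbers.

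Pol II peaks of proximal chromosome 4 lay close to one another. Of the 497 peaks, 443 had another peak within 10 kb, or 89.1% (86.1 to 91.7), against 82.5% (81.9 to 83.1) on other chromosomes and 83.4% over the whole list. All 24 other chromosomes had lower shares, from 76.2% on chromosome 18 to 86.2% on chromosome 21. The distal part had 89.3% (88.0 to 90.4). Adjacent peaks lay a median of 1685 bp apart, against 2520 bp on other chromosomes, of which the lowest was 1730 bp on chromosome 10. Below 29 Mb the share with a near neighbour was 88.0% (84.5 to 91.0), so the close spacing was not limited to the last 1 Mb. It was not seen along the whole part, however. The share was 91.8% from 0 to 5 Mb, 86.8% from 5 to 10 Mb, 92.3% from 10 to 15 Mb and 90.8% from 25 to 30 Mb. From 15 to 20 Mb it was 78.9% (30 of 38 peaks) and from 20 to 25 Mb 78.1% (25 of 32). These last shares were below the 82.5% of other chromosomes, within the counting error. Among the top 25% of peaks by score the order turned round, 41.7% (32.1 to 51.9) against 46.7%, within the counting error. The close spacing was therefore seen when weaker peaks were included. Both the share with a near neighbour and the spacing depend on the density of peaks, which was in view when the limit was set.

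**Figure D4:**
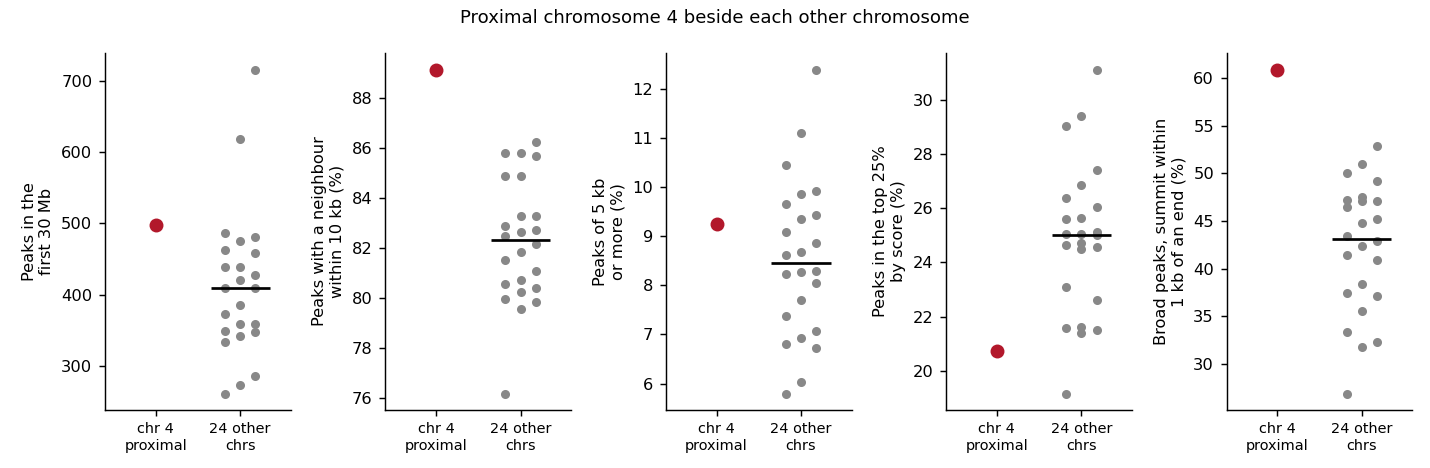
Proximal chromosome 4 (1 dot, left in each panel) beside the 24 other assembled chromosomes (right, line at their median). Panels give peaks in the first 30 Mb, peaks with a neighbour within 10 kb, peaks of 5 kb or more, peaks in the top 25% by score, and broad peaks with the summit within 1 kb of an end. Proximal chromosome 4 lies above all others in the second and the last panel, and second lowest in the fourth.

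Stitching peaks no more than 10 kb apart gave 151 clusters, of which 54 were lone peaks, 64 held 2 to 4 peaks and 33 held 5 or more. Lone peaks are those without a neighbour within 10 kb, so their share restates the one given above from the other side. They made up 10.9% of the proximal peaks (8.27 to 13.9), against 17.5% (16.9 to 18.1) on other chromosomes. Clusters of 2 to 4 peaks held 36.2% (32.0 to 40.6) against 31.3% (30.6 to 32.0), with intervals that just overlap, and 32.8% (30.9 to 34.7) on the distal part. The classes share out all peaks, so a lower share of lone peaks leaves more for the rest. Clusters of 10 or more peaks held 24.9% (21.2 to 29) against 23.6% (23.0 to 24.3). Lone proximal peaks had a median score of 100, and peaks in clusters of 10 or more 56.5. The same order held on other chromosomes, with 93 and 64. Counted as clusters, the part had 5.03 per Mb against 4.67, a ratio of 1.08 (0.911 to 1.27).

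**Figure D5:**
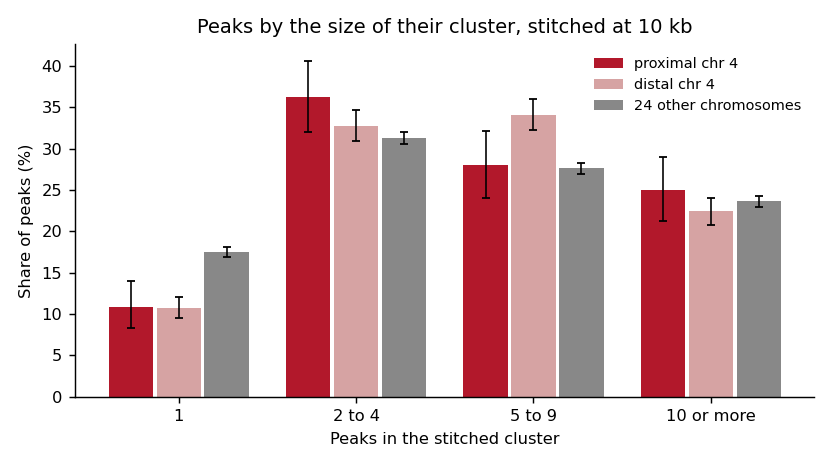
Share of Pol II peaks (%) by the number of peaks in their cluster after stitching at 10 kb, for proximal chromosome 4, distal chromosome 4 and the 24 other chromosomes. Error bars are exact Clopper-Pearson 95% intervals. Lone peaks, those without a neighbour within 10 kb, make up 10.9% of proximal peaks and 17.5% of peaks on other chromosomes.

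The largest clusters of the part were made of many peaks, mostly of ordinary or low score. In the order given here, the median scores of these 6 clusters were 69.5, 49, 53, 83, 66 and 63, against 72 for the part. The one with most peaks, 18, lay at 29815101 to 29859790, in the dense last 1 Mb. Its peaks covered 38.4% of 44.69 kb, none was broader than 4000 bp, and their scores ran from 25 to 516 with a median of 69.5. The next, with 17 peaks, lay at 2160561 to 2221120 and was denser, with 61.7% of 60.56 kb covered and 3 domains of 5 kb or more, the broadest 11780 bp. A cluster of 15 peaks (25763521 to 25807870) ended in a domain of 13.32 kb and reached a score of 712. The cluster of 12 (8669501 to 8711910) reached 571. Of the clusters of 11, that at 1750491 to 1771070 held no domain of 5 kb or more, while that at 16294601 to 16333150 held 2 and the score of 6492. Of these 6 clusters, only the last held a peak among the 1000 highest scores. Largest clusters on the other 24 chromosomes had 14 to 43 peaks, with a median of 22, against 18 for the proximal part. Those were whole chromosomes of 36.9 to 73.9 Mb set beside a part of 30 Mb. A longer span can hold a larger maximum, so no ranking is drawn from this.

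By covered length the order differed. First was the group of 3 peaks around the 36.01 kb domain (1459151 to 1497110), which covered 37.4 kb or 98.6% of its span, followed by the cluster of 17 peaks, also with 37.4 kb. The cluster with the score of 6492 covered 30.1 kb and the cluster of 12 peaks 29.5 kb. The fifth, 10 peaks at 22721931 to 22762680, covered 28.4 kb and reached a score of 793. Peaks of 5 kb or more made up 36.0 kb of the first, 26.4 kb of the second, 20.8 kb of the third, 7.66 kb of the fourth and 15.3 kb of the fifth, so the cluster of 12 peaks was the one made mostly of shorter peaks. In all, proximal peaks covered 973 kb, or 3.24% of the part, against 2.52% of other chromosomes and 7.67% of the distal part.

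Between the clusters lay long stretches free of Pol II peaks. There were 5 spaces longer than 1 Mb: 1.31 Mb (23748611 to 25061720), 1.18 Mb (27161031 to 28340050), 1.17 Mb (17680671 to 18846800), 1.04 Mb (6801011 to 7841090) and 1.02 Mb (15105121 to 16125430). The first 30 Mb of other chromosomes had 0 to 8 such spaces with a median of 2, and only chromosome 18 had more than 5. The distal part had 0. Of the 30 proximal 1-Mb bins, 40% held fewer than 10 peaks, against 44.8% of bins on other chromosomes, and 20% held 30 or more, against 7.12%. The part thus combined long empty stretches with a larger share of crowded bins than on other chromosomes. Gaps in the assembly and sequence to which reads cannot be mapped were not examined, and their part in these spaces was not tested.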

How the data were processed

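Pol II ChIP-seq and input chromatin were from 4 hpf zebrafish embryos, and 1 peak list was used. According to the study's methods, Novoalign 2.8 aligned the reads to Zv10 and assigned multi-mapping reads to a random site, SAMtools joined technical replicates, and a MACS2 wrapper called peaks on 2 biological replicates with 1 input. The authors deposited 1 whole-number score for each peak, of which the lowest was 20. It was read as 10 times −log10 q from the cutoff of 2 stated in the methods. Fold enrichment, p and q fields held 0 throughout and were not used. Sequencing depth is not given in the list. The effect of the wrapper's option on duplicate reads was not determined, and it bears on the highest scores.

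Members, lists and limits were chosen with earlier results of these data known. Density used the end of each chromosome's last peak as its length, and a peak was assigned by its start. Peaks 10 kb or less apart were stitched. Shares carry exact Clopper-Pearson 95% intervals, densities exact Poisson ones, ratios of densities the Clopper-Pearson interval of the split of peaks, and medians an interval from binomial order statistics. Named regions were the 10 highest and 10 broadest peaks, the 5 clusters with most peaks and with most covered length, the 5 longest spaces, the cluster of the highest score and the 3 peaks on either side of the limit. Other regions were named after their values were seen. Alternatives were other limits, merging within 500 bp, the top 25% by score and other stitching distances. No genome or annotation of the build was used, so no sequence is shown. Functions were tested on simulated data. Python 3.11.15, pandas 2.3.3, scipy 1.17.1 and matplotlib 3.10.9 were used.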

Additional observations from a re-analysis of the deposited data

How the results depend on the processing

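Of 34 alternatives for 7 results, 21 stayed within the counting interval (for the number of clusters, within 1.5 times) and 13 did not. The limit at 29 Mb and leaving out the first 5 Mb were alternatives chosen with the results in view. The density ratio of 1.25 was 1.01 with the limit at 25 Mb, 1.09 at 29 Mb, 1.06 without the first 5 Mb, 1.08 for stitched clusters and 1.03 for the top 25% of peaks by score. Merging peaks within 500 bp gave a share of 14.7% for peaks of 5 kb or more (12.9% on other chromosomes), a median width of 1080 bp (1000 bp) and 83.5% with a neighbour within 10 kb (74.8%). With 1 peak per stitched cluster, 25.2% were 5 kb or more (18.9%) and 15.2% were among the 1000 highest scores (14.0%). The order of this last share was the reverse of that over all peaks, 3.42% (5.03%). Over all peaks the share was 8.05% for the top 2000 (9.68%). A neighbour within 5 kb was present for 82.7% (76.3%), and among the top 25% of peaks by score 41.7% had one within 10 kb (46.7%). These settings change which peaks are counted, by construction. No paired analysis was possible because both replicates went into a single pooled call, so none could be left out.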
